A study of Mus musculus with 6 samples.

Results

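The early response transcription factors read here are 10 mouse genes: Fos and Fosb, Jun, Junb and Jund, Atf3, Egr1, Egr2 and Egr3, and Nr4a1. They were found on the arrays as the probes whose RefSeq accession belongs to those genes, which gave 10 probes, 1 per gene, of 55606 probes with values. The whole array gave 20259 genes with a value on all 6 arrays. The RNA came from Tot2, a myeloid progenitor line made from a mouse lacking Irf8, so every group shares that deletion. Cells were infected with a murine stem cell virus vector carrying a puromycin resistance gene alone (control), or with FLAG-tagged IRF8 or FLAG-tagged KLF4 added. All groups grew with 20% fetal bovine serum and 5 ng/ml granulocyte-macrophage colony-stimulating factor, were spun with virus in 4 µg/ml polybrene, were put under 2 µg/ml puromycin 48 hr later and were harvested on day 4. There are 2 arrays per group, from 2 experiments described as independent. The groups are thus bulk, virus-selected populations of a single line, and serum and virus handling are common to all of them.

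Early response genes are those whose transcription is switched on within minutes of a signal, without new protein synthesis, through factors such as SRF with its ETS-family partners and CREB that are already bound or waiting in the cell. Fos, Jun and Atf3 proteins are basic leucine zipper factors that pair into AP-1 dimers, Egr proteins are zinc finger factors, and Nr4a1 is an orphan nuclear receptor. In myeloid cells Egr1 and Egr2 are known for their part in macrophage differentiation, and Nr4a1 for its part in the monocytes that patrol vessels.

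The start regions of the genes were searched for short sequence motifs. RefSeq promoter windows (250 bases before to 50 after a transcription start, GRCm38.p6) were held for 8 of the 10 genes, in 12 windows. The 5 windows below belong to Fos, Atf3, Egr2, Nr4a1 and Jun. They lie at chr12:85473640-85473939 on the plus strand (Fos), chr1:191183284-191183583 on the minus strand (Atf3), chr10:67537619-67537918 on the plus strand (Egr2), chr15:101266596-101266895 on the plus strand (Nr4a1) and chr4:95052173-95052472 on the minus strand (Jun). Each is written 5′ to 3′ along its gene, and capitals mark CRE half-sites, in either direction, and the CArG box, the element that SRF binds.
Fos: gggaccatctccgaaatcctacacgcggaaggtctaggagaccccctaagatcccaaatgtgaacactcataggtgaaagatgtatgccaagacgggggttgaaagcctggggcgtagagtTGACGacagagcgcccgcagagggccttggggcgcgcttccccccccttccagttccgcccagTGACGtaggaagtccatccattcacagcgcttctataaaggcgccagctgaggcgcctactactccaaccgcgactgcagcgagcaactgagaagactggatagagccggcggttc
Atf3: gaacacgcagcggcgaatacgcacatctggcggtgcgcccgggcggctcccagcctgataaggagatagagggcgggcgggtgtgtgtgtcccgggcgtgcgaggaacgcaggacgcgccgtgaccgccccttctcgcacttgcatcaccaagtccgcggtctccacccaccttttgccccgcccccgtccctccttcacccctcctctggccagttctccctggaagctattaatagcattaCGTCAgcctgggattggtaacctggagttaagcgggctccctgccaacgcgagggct
Egr2: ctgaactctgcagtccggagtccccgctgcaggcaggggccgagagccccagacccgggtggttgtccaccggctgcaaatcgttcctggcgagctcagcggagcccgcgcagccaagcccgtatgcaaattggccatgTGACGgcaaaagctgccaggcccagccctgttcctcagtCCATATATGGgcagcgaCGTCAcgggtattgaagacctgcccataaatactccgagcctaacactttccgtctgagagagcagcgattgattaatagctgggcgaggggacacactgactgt
Nr4a1: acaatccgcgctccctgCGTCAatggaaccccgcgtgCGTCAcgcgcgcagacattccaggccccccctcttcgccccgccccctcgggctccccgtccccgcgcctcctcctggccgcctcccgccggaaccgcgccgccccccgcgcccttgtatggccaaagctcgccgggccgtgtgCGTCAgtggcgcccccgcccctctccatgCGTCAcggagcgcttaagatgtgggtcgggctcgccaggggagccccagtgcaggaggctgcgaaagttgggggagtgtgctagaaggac
Jun: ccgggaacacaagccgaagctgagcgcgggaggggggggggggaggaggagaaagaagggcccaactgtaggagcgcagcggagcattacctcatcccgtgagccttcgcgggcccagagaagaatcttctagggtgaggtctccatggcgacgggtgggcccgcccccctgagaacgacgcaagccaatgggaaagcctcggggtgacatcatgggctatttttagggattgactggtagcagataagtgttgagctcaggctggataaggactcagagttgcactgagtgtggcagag

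The CRE half-site TGACG, searched on both strands, is the core of the site that CREB and ATF factors bind. It was found in windows of 6 of the 8 genes (Fos, Fosb, Junb, Atf3, Egr2 and Nr4a1), in 8 of their 12 windows, and in 20.8% of all 32851 windows of the table. It was added to the search after the windows had been seen. Neither Jun nor Jund held it, and whether it bears on the differences between groups was not tested. Fos held it at -129 to -125 and at -66 to -62 from the start, and Atf3 at -7 to -3. Nr4a1 held 4 copies, at -233 to -229, -213 to -209, -69 to -65 and -40 to -36. The window of Egr2 shown above has a CArG box at -72 to -63 between half-sites at -111 to -107 and -55 to -51. A CArG box stood in 4 of the 12 windows, each of them an Egr2 window and 3 of them overlapping, against 1.63% of all windows. The full CRE TGACGTCA (1.79% of all windows), the AP-1 site TGACTCA (5.20%), the Egr site GCGTGGGCG (0.612%) and the ETS-IRF composite in either order of its parts (2.72% and 2.80%) were in none of the 12. Neither was the KLF-type site GGGTGTGG (3.56%). The full CRE contains the half-site, an AP-1 site shares most of its letters, and no other pair of these motifs overlapped in the windows shown. A match describes these letters and does not show binding, and a window without one says nothing about more distant sites.

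Each array had 47.1% to 56.8% of its probes well above background, and no spot was saturated. Levels below are log2 of the processed signal relative to each array's 75th percentile, so 0 is the level of that percentile. Pearson's r across genes, which are not independent replicates, was 0.993 to 0.995 within groups and 0.889 to 0.960 between them. The labels were checked first on the delivered genes. The Irf8 probe read 0.49 and 0.64 on the control arrays, 2.94 and 3.05 on those labelled IRF8, and 2.18 and 2.16 on those labelled KLF4. The Klf4 probe read -1.62 and -1.28 on control arrays, 4.46 and 4.61 on arrays labelled IRF8, and -1.56 and -1.33 on arrays labelled KLF4. Klf4 signal was thus not raised on the arrays labelled KLF4, but was 63.2-fold above control on those labelled IRF8. Irf8 signal was also 3.035-fold above control on the arrays labelled KLF4. On control arrays Irf8 signal lay above the 75th percentile, although the line was made from a mouse lacking Irf8. What these readings come from was not tested. Groups are therefore named here by label, and each direction rests on the labels. Neither probe is shown to read the delivered sequence, because where the probes lie within these genes was not analysed here.

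Against control, 9 of the 10 factors were tested and 9 were higher in IRF8-labelled cells, where 25.8% of all genes tested were called higher. None was lower, where 35.7% of all genes were. In KLF4-labelled cells 7 were called higher (10.4% of all genes) and none lower (8.89%), with Jun and Jund not called. At an unadjusted p under 0.05 limma also gave 0 lower factors in either group. Of all 13244 genes tested, 5072 were lower at that threshold in IRF8-labelled and 3119 in KLF4-labelled cells. Directly, 8 were higher with the IRF8 label than with the KLF4 label (23.7% of all genes), and Nr4a1 was lower (26.9%). A call is a limma adjusted p under 0.05, adjusted by Benjamini-Hochberg over all genes tested, with n = 2 arrays per group. Atf3 and Egr1 were well above background on only 1 of the 2 control arrays and passed the filter on dim probes through the transduced groups, so their being higher was partly built into the filter. Egr3 did not pass it. For the 7 factors above background on all 6 arrays, a fit restricted to such genes called 7 and 5 higher against control, and 6 higher with 1 lower in the direct comparison. That fit held 11662 genes and called 2818 of them higher in IRF8-labelled and 1038 higher in KLF4-labelled cells than in control. In its direct comparison 2739 genes were higher and 3420 lower with the IRF8 label.

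The arrays of the groups compared did not overlap for 9 of 9 tested factors between IRF8-labelled and control cells, where 80.3% of all genes also did not. The count was 8 of 9 between KLF4-labelled and control cells (64.9% of all genes) and 9 of 9 between the transduced groups (75.5%). With 2 arrays a group, non-overlap is near the background and says little. The median log2 difference of the tested factors was 2.81, 2.00 and 0.95 in the 3 comparisons, beside -0.13, -0.16 and -0.01 over all genes tested. These medians include Atf3 and Egr1, which passed the filter on dim probes through the transduced groups. Over the 7 factors above background on all 6 arrays the medians were 1.98, 1.56 and 0.91. Over all such genes they were -0.19, -0.18 and -0.03. The control and KLF4-labelled arrays each serve in more than 1 comparison, so the comparisons are not independent. In bulk RNA, more cells that express a factor and more RNA per cell cannot be told apart.

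**Figure D1:**
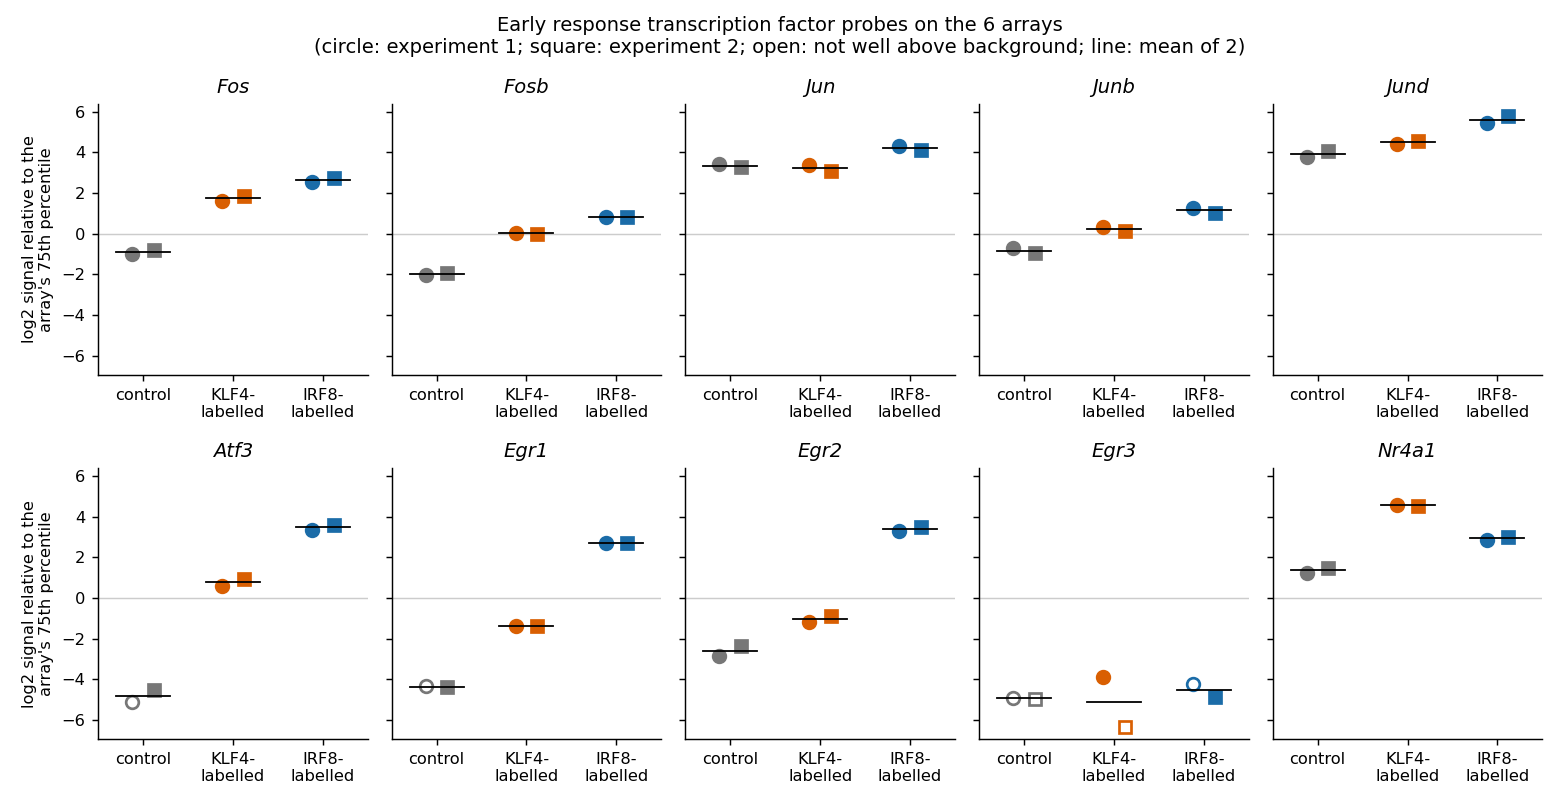
Log2 signal of each factor's probe on the 6 arrays, relative to the array's 75th percentile (y axis), by group (x axis). Circles are experiment 1, squares experiment 2, open symbols are not well above background and the line is the mean of 2. Nr4a1 is highest on the KLF4-labelled arrays (4.56 and 4.55), and the 7 factors Fos, Fosb, Junb, Jund, Atf3, Egr1 and Egr2 are highest on the IRF8-labelled arrays and intermediate on the KLF4-labelled arrays.

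Fos, the partner that gives AP-1 dimers their strong activity, is read by 10 spots of a single probe on each array. Its level was -1.02 and -0.82 in control cells, 2.52 and 2.73 in IRF8-labelled cells, and 1.63 and 1.84 in KLF4-labelled cells. The 3 groups were apart, with both transduced groups above control and the IRF8-labelled arrays highest. Fos rose 11.7-fold in IRF8-labelled cells (log2 3.55 ± 0.14 (SE), limma adjusted p = 5.02e-05) and 6.28-fold in KLF4-labelled cells (log2 2.65 ± 0.14, limma adjusted p = 3.74e-04). The direct difference was 1.86-fold (log2 0.90 ± 0.14, limma adjusted p = 0.00498). That call was lost with scaling on the spike-in control probes (0.74, adjusted p = 0.143). The spread over the spots of 1 array was 2.78% to 5.91% (coefficient of variation), so spot noise is small beside these differences, though spots are not replicates of a condition. Before scaling, the processed signal of the spots averaged 272 and 483 on control, 2507 and 5854 on IRF8-labelled and 1656 and 3485 on KLF4-labelled arrays. Experiment 2 was brighter throughout.

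**Figure D2:**
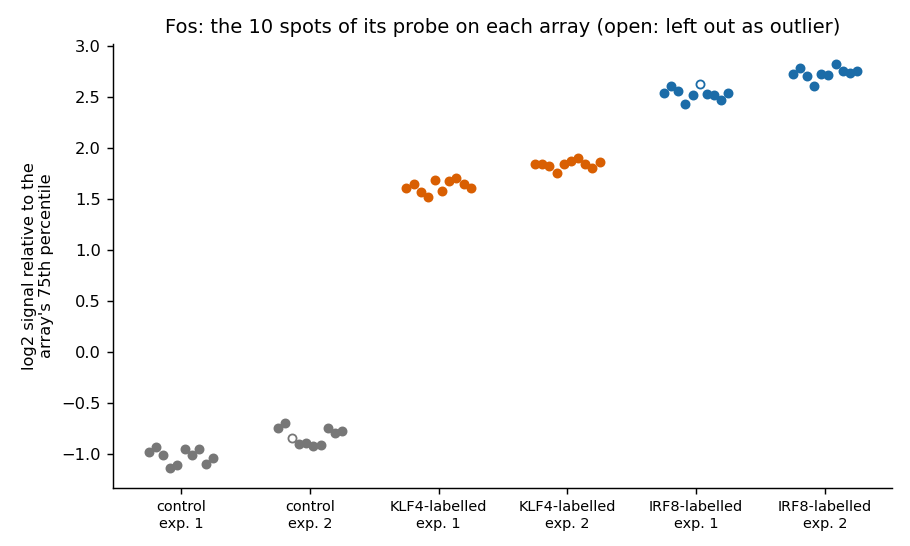
Log2 signal of each of the 10 Fos spots relative to the array's 75th percentile (y axis) on each array (x axis), open where the scanner software marked the spot as an outlier. The spots of an array lie close together, and those of the 3 groups do not overlap.

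Fosb, a second Fos-family partner, read -2.03 and -1.96 on control, 0.79 and 0.83 on IRF8-labelled and 0.03 and -0.01 on KLF4-labelled arrays. The order of groups was that of Fos, at tight spacing within each group. Fosb rose 6.99-fold in IRF8-labelled cells (log2 2.81 ± 0.08, limma adjusted p = 2.35e-05) and 4.01-fold in KLF4-labelled cells (log2 2.00 ± 0.08, limma adjusted p = 1.76e-04). It was 1.75-fold higher in the former than in the latter (log2 0.80 ± 0.08, limma adjusted p = 0.00145), a call lost with spike-in scaling (0.65, adjusted p = 0.197).

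The 3 Jun-family genes encode the partners that Fos proteins need, and they can also pair among themselves. Junb, often described as a restraining partner, read -0.72 and -0.97 on control, 1.28 and 0.99 on IRF8-labelled and 0.34 and 0.12 on KLF4-labelled arrays. It rose 3.95-fold in IRF8-labelled cells (log2 1.98 ± 0.16, limma adjusted p = 3.93e-04) and 2.10-fold in KLF4-labelled cells (log2 1.07 ± 0.16, limma adjusted p = 0.0136). The second of these calls was lost without control replicate 2 (adjusted p = 0.0540), KLF4 replicate 1 (0.0907) or KLF4 replicate 2 (0.0568), and with no filter on dim probes (0.0564). The direct difference was 0.91 ± 0.16 (limma adjusted p = 0.00776), lost with spike-in scaling (0.75, adjusted p = 0.115).

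Jund, the family member that most cells keep at a steady level, read 3.79 and 4.06 on control, 5.44 and 5.79 on IRF8-labelled and 4.39 and 4.58 on KLF4-labelled arrays. It rose 3.22-fold in IRF8-labelled cells (log2 1.69 ± 0.17, limma adjusted p = 8.06e-04). In KLF4-labelled cells both arrays lay above both control arrays, by 0.56 ± 0.17 (95% interval 0.12 to 0.99), without passing the threshold (limma adjusted p = 0.0787). With the experiment number as a block the same difference passed (adjusted p = 0.00903). Between the transduced groups Jund was 2.19-fold higher with the IRF8 label (log2 1.13 ± 0.17, limma adjusted p = 0.00464).

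Jun, the founding member and the main transactivating partner of Fos, read 3.41 and 3.27 on control, 4.29 and 4.09 on IRF8-labelled and 3.38 and 3.09 on KLF4-labelled arrays. The KLF4-labelled arrays overlapped the control arrays, whereas the IRF8-labelled arrays stood above both. Jun was 1.80-fold higher in IRF8-labelled than in control cells (log2 0.85 ± 0.14, limma adjusted p = 0.00439), the smallest difference from control among the 9 tested factors in that comparison. That call was lost with spike-in scaling (0.79, adjusted p = 0.0707). In KLF4-labelled cells the difference was -0.10 ± 0.14 (95% interval -0.46 to 0.25, limma adjusted p = 0.608), so a rise of the size seen in IRF8-labelled cells lay outside the interval. The direct difference was 0.95 ± 0.14 (limma adjusted p = 0.00425), lost with spike-in scaling (0.80, adjusted p = 0.0919).

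Atf3, a stress-inducible factor that pairs with Jun proteins and can repress inflammatory genes, had the largest difference from control of the tested factors in both transduced groups. It read -5.12 and -4.54 on control arrays, the first not well above background, 3.37 and 3.60 with the IRF8 label and 0.61 and 0.94 with the KLF4 label. The rise from control was 318-fold in IRF8-labelled cells (log2 8.31 ± 0.23, limma adjusted p = 2.14e-05) and 48.8-fold in KLF4-labelled cells (log2 5.61 ± 0.23, limma adjusted p = 1.88e-04). The control level is near background, so these sizes depend on the background treatment: normexp correction gave 6.03 and 3.44, both still called. Between the transduced groups, both above background, Atf3 was 6.52-fold higher with the IRF8 label (log2 2.71 ± 0.23, limma adjusted p = 9.01e-04).

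The Egr genes encode zinc finger factors, with Egr1 and Egr2 the pair best known in macrophages. Egr1 read -4.33 and -4.39 on control arrays, the first not well above background, 2.69 and 2.71 with the IRF8 label and -1.39 and -1.40 with the KLF4 label. It rose 133-fold in IRF8-labelled cells (log2 7.05 ± 0.08, limma adjusted p = 5.29e-06) and 7.79-fold in KLF4-labelled cells (log2 2.96 ± 0.08, limma adjusted p = 5.66e-05). With normexp these were 5.15 and 1.47, both called. The transduced groups differed by 17.0-fold (log2 4.09 ± 0.08, limma adjusted p = 3.07e-05).

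Egr2 was above background on every array and read -2.83 and -2.36 on control, 3.28 and 3.50 on IRF8-labelled and -1.19 and -0.88 on KLF4-labelled arrays. It rose 63.4-fold in IRF8-labelled cells (log2 5.99 ± 0.21, limma adjusted p = 3.68e-05, 5.17 with normexp) and 2.94-fold in KLF4-labelled cells (log2 1.56 ± 0.21, limma adjusted p = 0.00944). Without KLF4 replicate 2 the latter call was lost (1.40, adjusted p = 0.0661). IRF8-labelled cells exceeded KLF4-labelled cells 21.6-fold (log2 4.43 ± 0.21, limma adjusted p = 2.02e-04), the largest difference among the tested factors in that comparison. Egr3 was not well above background on either control array, on IRF8-labelled array 1 or on KLF4-labelled array 2. Its levels were -4.90 and -4.97, -4.24 and -4.86, and -3.89 and -6.35 in the 3 groups in that order. The 2 KLF4-labelled values spanned all the others, so no order of the groups can be read for Egr3.

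Nr4a1, the orphan nuclear receptor, differed from the other tested factors in its order of groups. It read 1.22 and 1.49 on control, 2.86 and 3.01 on IRF8-labelled and 4.56 and 4.55 on KLF4-labelled arrays. It rose 9.17-fold in KLF4-labelled cells (log2 3.20 ± 0.12, limma adjusted p = 1.47e-04) and 2.98-fold in IRF8-labelled cells (log2 1.57 ± 0.12, limma adjusted p = 3.61e-04). Its level in IRF8-labelled cells was 3.08-fold below that in KLF4-labelled cells (log2 -1.62 ± 0.12, limma adjusted p = 6.35e-04). The other 8 tested factors were higher in the IRF8-labelled group.

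**Figure D3:**
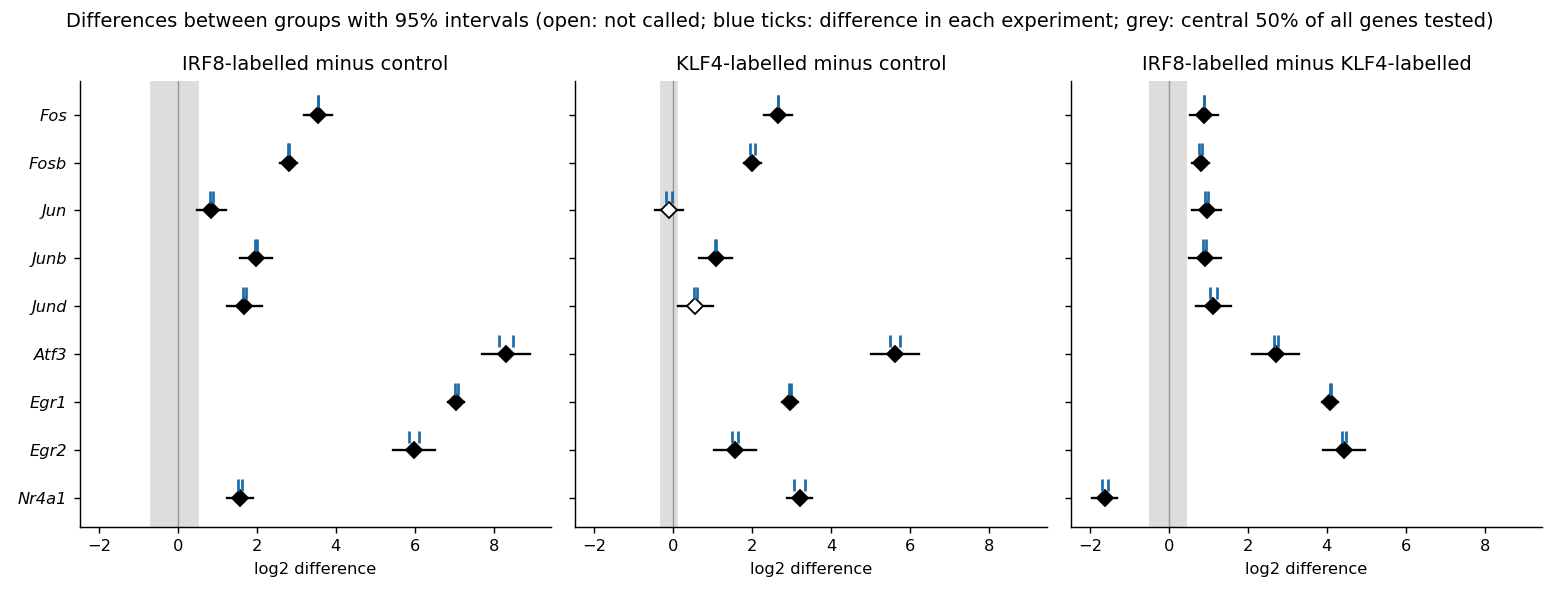
Log2 difference (x axis) of the 9 tested factors (rows) in the 3 comparisons, as diamonds with 95% intervals, open where limma did not call the difference, with blue ticks for the difference within each experiment. Grey shows the central 50% of all genes tested, and the differences from control lie outside it for every factor but Jun in KLF4-labelled cells.

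The 2 experiments gave like values when each was read alone. For IRF8-labelled cells against control, the differences in experiments 1 and 2 were 3.54 and 3.55 for Fos, 8.49 and 8.14 for Atf3, and 6.11 and 5.86 for Egr2. For KLF4-labelled cells they were 2.65 and 2.66 for Fos, 5.73 and 5.49 for Atf3, 1.64 and 1.47 for Egr2, and 3.34 and 3.06 for Nr4a1. Experiment number and slide coincide, so they cannot be told apart.

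Patterns over the 6 arrays were compared by the root mean square distance between profiles, each minus its own mean. Among the 7 factors above background on all arrays, the closest pairs were Junb with Jund (0.339 log2 units) and Fos with Fosb (0.343), and the farthest was Egr2 with Nr4a1 (2.56). Of 11655 other genes above background on all arrays, those nearest to Fos were Slc2a6, a glucose transporter family member (0.0938), Clmp (0.134) and Dennd2a (0.154). Nearest to Egr2 were Cd200r1, an inhibitory receptor of myeloid cells (0.204), Ifi209 (0.209) and Naaa, a lysosomal amidase (0.342). Nearest to Nr4a1 were Rnase4, a secreted ribonuclease (0.0651), Rhpn2 (0.104) and St3gal6, a sialyltransferase (0.213). Among so many genes some lie close by the number searched alone.

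The factors' relatives and partners moved in both directions. Of 14 other AP-1 and related zipper genes 13 were tested, and in IRF8-labelled cells 6 were higher, 4 lower and 3 not called, beside 25.8% of all genes higher and 35.7% lower. Batf3, a zipper partner known for its role with IRF8 in dendritic cells, rose by log2 5.87 ± 0.19 (limma adjusted p = 3.24e-05) and Fosl2 by 2.86 ± 0.10 (3.72e-05). Maf, a zipper factor of macrophages not well above background on control arrays, was at least 6.68-fold higher (limma adjusted p = 2.79e-04). The 4 lower calls fell to 1 with spike-in scaling. In KLF4-labelled cells Batf3 rose by 3.01 ± 0.19 (limma adjusted p = 7.66e-04) and Fosl2 by 2.36 ± 0.10 (1.91e-04). There 4 of the 13 were higher and 0 lower, beside 10.4% of all genes higher and 8.89% lower. At an unadjusted p under 0.05 limma gave 2 lower, beside 3119 of all 13244 genes tested. With the block 5 were higher and 3 lower, and with normexp or no filter on dim probes 2 were higher. The direct comparison gave 5 higher in IRF8-labelled cells, 2 lower and 6 not called, beside 23.7% of all genes higher and 26.9% lower. With the block the counts were 7 and 4.

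Of 23 other early response genes 21 were tested. In IRF8-labelled cells 11 were higher and 4 lower (median 0.79, beside 25.8% of all genes higher and 35.7% lower). Klf6, a zinc finger factor, rose by 3.78 ± 0.09 (limma adjusted p = 1.63e-05) and Btg2, an antiproliferative gene, by 2.98 ± 0.13 (6.54e-05). Egr4, the remaining Egr family gene, rose by 3.16 ± 0.45 (limma adjusted p = 0.00272), with 1 of 2 control arrays above background. Myc, the growth-promoting early gene, differed in direction: named after its value was seen for this comparison, it fell by 2.06 on the log2 scale (limma adjusted p = 2.76e-04). In KLF4-labelled cells 5 were higher and 3 lower (median 0.16, beside 10.4% of all genes higher and 8.89% lower). Klf6 rose there by 1.18 ± 0.09 (limma adjusted p = 0.00151) and Ier3, a survival gene, by 1.09 ± 0.08 (0.00113). The 3 lower calls became 0 with median or spike-in scaling and 5 with the block, and the higher calls 3 with spike-in scaling and 7 with the block. Directly, 10 were higher in IRF8-labelled cells and 5 lower, beside 23.7% and 26.9% of all genes. Among the called genes were Klf6 (6.06-fold higher) and Myc (4.09-fold lower) (log2 SE 0.09 and 0.15, limma adjusted p = 1.27e-04 and 5.55e-04).

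Of 27 kinases and factors of the signalling route upstream, all tested, 8 were higher, 4 lower and 15 not called in IRF8-labelled cells (median 0.06, beside 25.8% of all genes higher and 35.7% lower), with 9 and 8 called under the block and 5 and 2 with spike-in scaling. Crem, a CREB relative with activator and repressor forms, stood apart at 4.95 ± 0.19 (limma adjusted p = 5.14e-05), with 1 of 2 control arrays above background. Mapk3, which encodes the kinase ERK1, rose by 1.17 ± 0.08 (limma adjusted p = 2.76e-04). Srf was not among the 4 largest and is named after its value was seen: it fell by 0.94 on the log2 scale (limma adjusted p = 5.90e-04). In KLF4-labelled cells 2 were higher and 4 lower, beside 10.4% and 8.89% of all genes. The 4 became 0 with median or spike-in scaling and 9 with the block, where 5 were higher. Crem rose there by 2.24 ± 0.19 (limma adjusted p = 0.00205). Directly, 9 were higher in IRF8-labelled cells and 2 lower, beside 23.7% and 26.9% of all genes. The counts were 14 and 4 with the block and 2 and 0 with spike-in scaling.

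Of 20 genes listed as feedback inhibitors 19 were tested. In IRF8-labelled cells 10 were higher and 4 lower (median 0.43, beside 25.8% of all genes higher and 35.7% lower). Errfi1, an inhibitor of epidermal growth factor receptors, was at least 50.1-fold higher. Dusp1, a phosphatase of MAP kinases, rose by 2.81 ± 0.09 (limma adjusted p = 2.76e-05), whereas Dusp2, another, fell by 3.08 on the log2 scale (3.24e-05). In KLF4-labelled cells 5 were higher and 2 lower, beside 10.4% and 8.89% of all genes. These counts were 8 and 5 under the block, and 5 and 0 with spike-in scaling. Dusp1 rose there by 1.99 ± 0.09 (limma adjusted p = 2.10e-04) and Nfkbia, the inhibitor of NF-κB, by 2.06 ± 0.19 (0.00252). Directly 6 were higher in IRF8-labelled cells and 6 lower, beside 23.7% and 26.9% of all genes. These were led by Errfi1 (3.72 ± 0.35) and Spry1, a receptor signalling inhibitor (-2.73 ± 0.11, limma adjusted p = 0.00115 and 1.40e-04). With spike-in scaling the counts were 3 and 4.

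Of 16 genes described in textbooks as AP-1 or Egr targets, 15 were tested. In IRF8-labelled cells 13 were higher and 1 lower (median 2.68, or 2.55 with undetected genes at their bound), beside 25.8% and 35.7% of all genes. In KLF4-labelled cells 14 were higher and none lower (median 2.55, or 2.54), beside 10.4% and 8.89% of all genes. Among those undetected on control arrays, Ccl2, a monocyte chemokine, was at least 1419-fold and at least 45.7-fold higher in the 2 groups, and Ccnd1, the cyclin D1 gene, at least 779-fold and at least 10.3-fold. Mmp9, a gelatinase, was at least 7.41-fold lower with the IRF8 label than with the KLF4 label. Genes undetected on control arrays passed the filter on dim probes through the transduced groups, so their being higher was partly built into the filter. Many of the textbook targets are also macrophage genes, and 7 of them were above background on all 6 arrays. The fit restricted to genes above background on all 6 arrays called 7 of those 7 higher in IRF8-labelled and 6 in KLF4-labelled cells. Of its 11662 genes it called 2818 and 1038 higher. Directly, 8 of the 15 were higher in IRF8-labelled cells and 4 lower, beside 23.7% and 26.9% of all genes. With spike-in scaling the counts were 5 and 4. Of 6 heat shock genes on the array, read as a sign of general stress, 4 passed the filter on dim probes. None of the 4 was called higher in any of the 3 comparisons (1 was in IRF8-labelled against control cells with quantile normalization), and with no filter 1 of the 6 was called higher in IRF8-labelled against KLF4-labelled cells. The 2 that did not pass, Hspa1a and Hspb1, are stress-inducible and were each above background on 1 array. Hspa1a read -6.56 and -5.92 on control, -6.87 and -1.47 on IRF8-labelled and -7.16 and -6.75 on KLF4-labelled arrays, so 1 IRF8-labelled array stood apart. Hspb1 read -6.62 and -7.02, -6.07 and -4.86, and -7.21 and -7.70 in that order, highest on the IRF8-labelled arrays. Among the tested genes Hsp90aa1 fell by 1.14 on the log2 scale in IRF8-labelled cells (limma adjusted p = 0.00138). In KLF4-labelled cells limma called 0 of the 4, with 0 at an unadjusted p under 0.05. Over all 13244 genes tested, 1879 were higher and 3119 lower at that unadjusted threshold. Under the block 2 of the 4 were called lower.

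**Figure D4:**
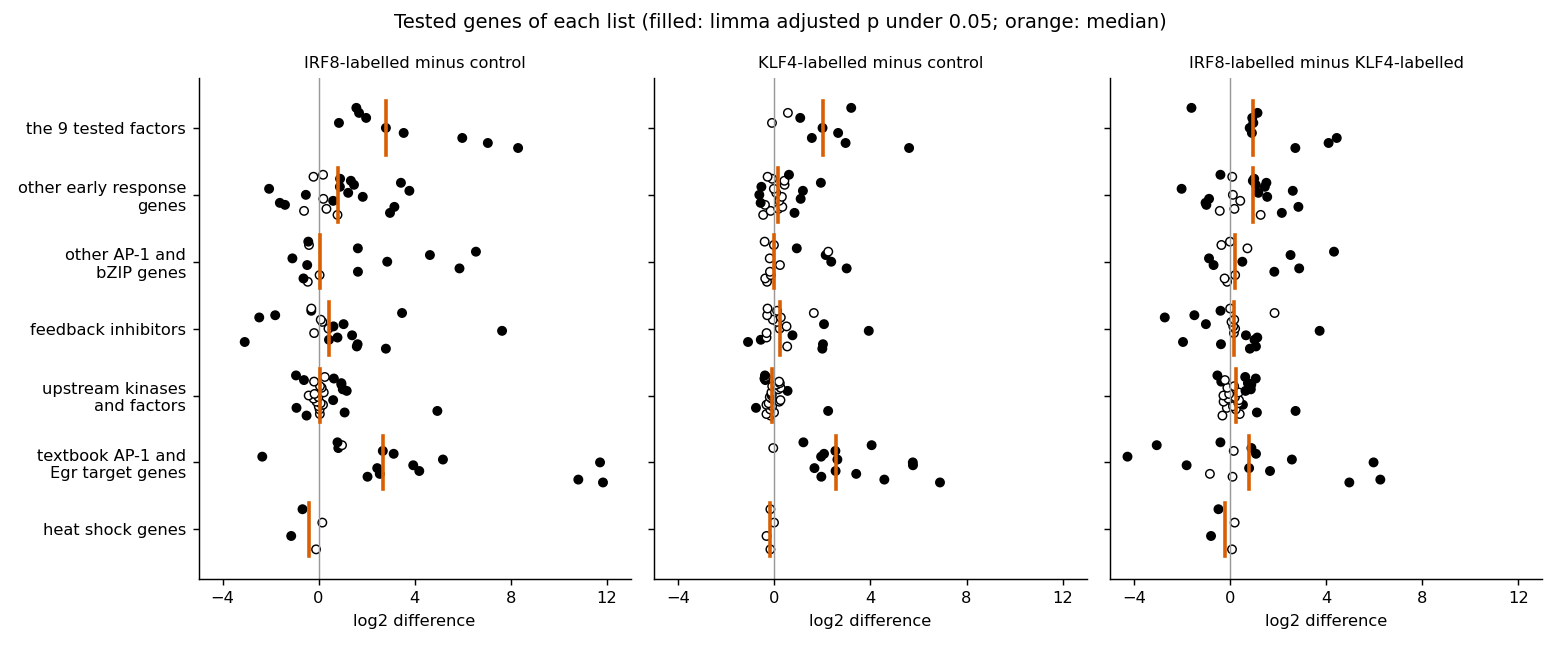
Log2 difference (x axis) of each tested gene in the lists (rows), filled where limma called it, with the list median in orange. The tested factors and the textbook target genes lie mostly to the right of 0 against control, the upstream kinases and factors lie on both sides of it, and the 4 heat shock genes lie below it in KLF4-labelled cells.

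Markers of cell state moved with the factors. The 6 monocyte and macrophage markers on the array had a summed level (log2 of the summed signals) of 4.13 to 4.14 on control, 7.24 to 7.27 on KLF4-labelled and 9.02 to 9.30 on IRF8-labelled arrays. That is the order shown by Fos, Fosb, Junb, Jund, Atf3, Egr1 and Egr2, and 6 and 5 of these markers were called higher in IRF8-labelled and KLF4-labelled cells. Lyz2 alone gave most of the sum on the transduced arrays. The 10 myeloid lineage markers were above background on every array, with summed levels of 10.9 to 11.3 on control, 10.4 to 11.0 on KLF4-labelled and 9.59 to 9.86 on IRF8-labelled arrays. Ctsg and Mpo together gave most of each sum. Ptprc, Spi1, Itgam and Fcgr3 went the other way and were higher on the IRF8-labelled than on the control arrays. Thy1, a surface protein of T cells and fibroblasts, read -3.68 and -3.14 on control, -4.01 and -4.34 on IRF8-labelled and 0.95 and 1.09 on KLF4-labelled arrays. The 9 fibroblast and packaging cell markers summed to -1.89 to -1.75 on control, -2.29 to -1.82 on IRF8-labelled and 1.12 to 1.18 on KLF4-labelled arrays. Thy1 alone made up most of the KLF4-labelled sum. Col1a1 read -4.10 and -3.95 on control and -4.43 and -5.26 on KLF4-labelled arrays. Col1a2 read -4.17 and -4.16 on control and -3.77 and -4.15 on KLF4-labelled arrays. Dcn, Lum, Postn, Pdgfra and Pdgfrb were above background on no array. Of 7 lymphocyte markers only Cd3e was above background on all 6 arrays, and their sum was 0.01 to 0.28, 0.75 to 1.37 and -0.24 to 0.64 in the control, IRF8-labelled and KLF4-labelled groups. The 5 erythroid markers summed to 1.07 to 1.21, -0.53 to -0.50 and 0.71 to 0.88 in that order, with Gata1 above background on no array. Epor gave most of each sum. Hba-a1 went the other way, at -4.17 and -4.08 on control and -2.43 and -2.38 on IRF8-labelled arrays. Of 3 erythroid markers tested, limma called 1 higher and 2 lower in IRF8-labelled cells. Of the myeloid lineage markers 4 were higher and 5 lower in IRF8-labelled cells, among them the granule protease gene Elane (-2.84 ± 0.19, limma adjusted p = 2.27e-04) and the Fc receptor gene Fcgr3 (2.66 ± 0.08, 2.85e-05), and 2 were higher and 1 lower in KLF4-labelled cells. The latter counts were 0 and 0 with spike-in scaling and 4 and 4 with the block. Over all genes the shares higher and lower were 25.8% and 35.7% in IRF8-labelled cells, and 10.4% and 8.89% in KLF4-labelled cells. The part of these markers in the factors' differences was not tested.

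**Figure D5:**
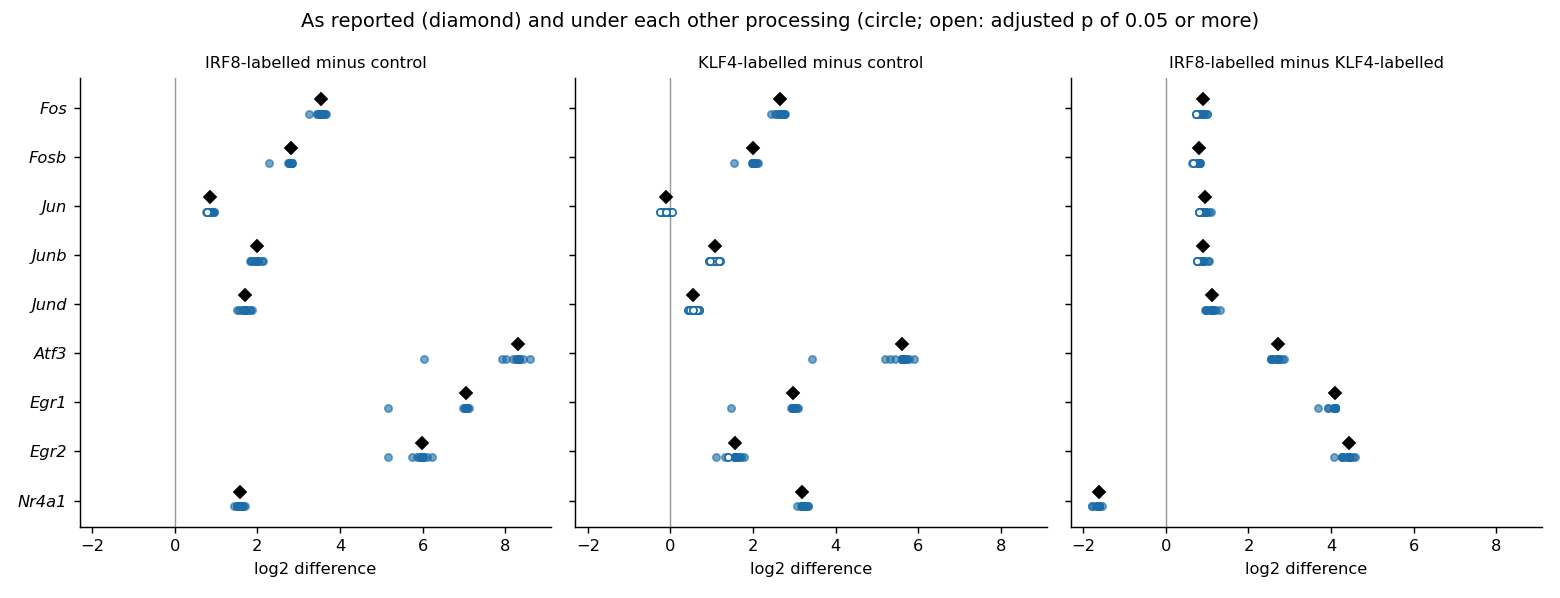
Log2 difference (x axis) of the 9 tested factors (rows) as reported (diamond) and under each other processing (circle, open where the adjusted p was 0.05 or more). Normexp shortens the differences of Atf3 and Egr1 from control, from 8.31 to 6.03 and from 7.05 to 5.15 in IRF8-labelled cells.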

How the data were processed

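Total RNA was labelled with Cy3 and read on 6 single-colour Agilent arrays (62976 spots), 2 per group. Per the file headers, the deposited intensity values were made with Agilent Feature Extraction 10.7.3.1, which subtracted background and detrended each array. The value table deposited by the authors also holds intensity, the processed signal times 1 factor per array (0.642 to 1.388), within 1% for over 99.7% of probes, and was used as an alternative. Probe accessions were named through RefSeq (GRCm38.p6), 26756 of 28390 matching.

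Control and outlier-marked spots were left out and replicate spots averaged. Log2 signal minus the array's 75th percentile, from the file header, was used. The brightest probe stood for a gene. Genes entered the test when both arrays of some group were well above background. A group with no array above background has only a bound: "at least" folds use the lowest signal well above background on each array. One limma model (limma 3.58.1, R 4.3.3, 3 residual degrees of freedom) held the 6 arrays, two-sided, with Benjamini-Hochberg adjustment over 13244 genes. Every SE is on the log2 scale. In simulated data for IRF8-labelled against control cells (13244 genes, 200 changed), log2 changes of 1 and 2 were recovered in 54% and 83.6%, and 5.20% of calls were false. The simulation changed 200 genes where 8148 were called in the data, and it drew the arrays independently of one another. Its shares are therefore not those of these data.

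The members and gene lists were chosen with earlier results of these data known. Named genes are the 10 members, Irf8 and Klf4, up to 4 called genes per list and comparison with the largest differences, and the 3 nearest profiles for 3 members; some genes under this rule are not reported here. The experiment number, which is also the slide, pairs the arrays: deviations from group means correlated at r = 0.282 to 0.391 over 13244 genes. Precision is limited by having 2 arrays a group, and p-values measure only the spread between them. Alternatives were 4 other scalings, normexp on the median spot signal (offset 50), the value table, other filters and probe rules, trend and robust limma, the block, 2 groups alone and leaving out each array. The scaling on the 75th percentile of all probes and the choice of the median signal for normexp were made after the files were seen.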

Additional observations from a re-analysis of the deposited data

How the results depend on the processing

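Of the 27 differences of tested factors, 19 stayed on their side of the threshold under every alternative run, and of 534 values 522 did so, 10 lost the call, 2 gained it and no call reversed. The uncalled difference of Jun in KLF4-labelled cells (-0.10) changed sign with median scaling (0.02) and without KLF4 replicate 2 (0.04). Spike-in scaling took the factors called between the transduced groups from 9 to 5 (Fos, Fosb, Jun and Junb lost), and leaving out 1 array gave 9 to 9 factors against control in IRF8-labelled cells and 5 to 7 in KLF4-labelled cells. Over all genes, calls for IRF8-labelled against control cells were 8148, and 4882 with spike-in scaling. For KLF4-labelled against control cells they were 2551 as reported, 1498 with median scaling, 1055 with spike-in scaling, 990 with normexp, 973 with no filter, 1629 with only the 2 groups compared, 6758 with the replicate block and 877 to 1617 without 1 array. Between the transduced groups they were 6706, and 3156 with spike-in scaling. The cause of these changes was not tested. The replicate block added Jund in KLF4-labelled cells (adjusted p = 0.00903), as trend and robust limma did (0.0466), and changed no other call of a factor. The split of higher to lower calls in KLF4-labelled cells, 1373 to 1178, was 1315 to 183 with median scaling, 930 to 125 with spike-in scaling, 1561 to 767 with quantile normalization, 1377 to 752 with the 75th percentile of all probes, and 2190 to 4568 with the block. It was 1373 to 736 with the value table. Between the transduced groups 3142 to 3564 became 2074 to 3854 with median scaling. The median of all genes moved by over 0.1 with median scaling in KLF4-labelled cells (-0.16 to -0.04) and between the transduced groups with median or spike-in scaling (-0.01 to -0.17) and with no filter on dim probes (-0.01 to 0.14). Background limits Atf3, Egr1 and Egr3 on control arrays, and a fit of genes above background on all 6 arrays gave no value for them.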
